A study of Caenorhabditis elegans with 12 samples.

Results

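The lysozyme genes *lys-1* to *lys-10* of *Caenorhabditis elegans* were taken by gene name from the deposited gene counts, which gave 10 members among 46546 named genes. The counts come from wild-type N2 Bristol hermaphrodites that were hatched synchronously, fed *E. coli* OP50 and grown from L1 either with 20 µM cadmium chloride (Cd) in the food or without it (0 µM). Whole animals were collected at the L3 stage (27 h) or the L4 stage (47 h), and poly-A RNA was sequenced. The 4 groups, Cd-exposed L3, unexposed L3, Cd-exposed L4 and unexposed L4, held 3 replicate libraries each, 12 libraries in all. The labels do not say how the replicates were raised, and p-values measure the spread between these libraries. The L4 animals were both older and, where exposed, longer in contact with Cd, so that stage and duration cannot be told apart.

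Lysozymes are secreted or vesicular enzymes that cut peptidoglycan, the polymer of bacterial cell walls. *C. elegans* lives on bacteria and carries a protist-type family, the *lys* genes, beside an invertebrate-type family, the *ilys* genes. Several *lys* genes are expressed in the intestine, where ingested bacteria are digested and pathogens are met, and they are commonly used as read-outs of innate immunity. Their transcription has been linked to the PMK-1 MAP kinase cascade, to the insulin-like DAF-2 to DAF-16 pathway and to DBL-1, a TGF-β family ligand.

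Of the 10 genes, 6 lie in short clusters of 3 on the WBcel235 genome. *lys-1* (WBGene00003090, chromosome V, 10277827 to 10279127, plus strand), *lys-2* (WBGene00003091, chromosome V, 10280310 to 10281474, minus strand) and *lys-3* (WBGene00003092, chromosome V, 10282204 to 10283544, minus strand) spanned 5718 bases. The gaps between them measured 1182 and 729 bases, with no annotated gene inside. *lys-4* (WBGene00003093, chromosome IV, 11621443 to 11623174), *lys-5* (WBGene00003094, chromosome IV, 11624255 to 11625582) and *lys-6* (WBGene00003095, chromosome IV, 11626910 to 11627947), all on the minus strand, spanned 6505 bases with gaps of 1080 and 1327 bases. The other genes stand alone. *lys-7* (WBGene00003096) lies on chromosome V at 3481421 to 3482600 and *lys-8* (WBGene00003097) on chromosome II at 5586165 to 5587651. *lys-9* (WBGene00003098) lies on chromosome I at 12454853 to 12455826 and *lys-10* (WBGene00003099) on chromosome IV at 8332826 to 8333559. All are annotated as protein coding, with between 1 exon (*lys-10*) and 4 exons (*lys-9*). The last 38 exonic bases of *lys-8* overlap *C17G10.13* on the other strand, and the members are paralogs. Whether the counting used strand or kept reads that map to several places is not given in the sources used here, so that the *lys-8* values, and any split of reads between close copies, are uncertain to that extent.

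The libraries held between 23899991 and 44766672 counts assigned to named genes. As a check of the labels, *mtl-1*, the metallothionein gene that Cd induces, measured 210.7 to 255.5 CPM, a scaled count, in Cd-exposed L3 libraries and 5.108 to 6.221 CPM in unexposed L3 libraries. At L4 it measured 14.84 to 22.57 CPM in the Cd-exposed libraries against 1.338 to 3.47 CPM in the unexposed ones. The groups did not overlap at either stage, although the source field in the labels of the Cd-exposed libraries reads 0 for Cd, against their title, description and treatment. CPM are the counts of a gene scaled to a common library size, here normalised by the trimmed mean of M-values (TMM) over the 12 libraries. Levels of different genes are compared only as TPM, the length-normalised share of all transcripts on the same kind of scale.

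The family fell into 5 abundant genes, 4 scarce genes and 1 gene that was all but undetected. Averaged over the 12 libraries, *lys-1* was the highest at 710.3 TPM, rank 220 among the 28601 genes with a count, and alone made 42.23% of the family's summed TPM. It was followed by *lys-8* (308.3 TPM), *lys-2* (236.4 TPM), *lys-4* (212.9 TPM) and *lys-7* (205.1 TPM). The scarce genes averaged 3.214 TPM (*lys-5*), 2.538 TPM (*lys-6*), 1.683 TPM (*lys-10*) and 1.426 TPM (*lys-3*). *lys-9* had 1 count in Cd-exposed L3 replicate 3 and 1 count in unexposed L3 replicate 3. It had 0 counts in the other 10 libraries, each of which allows a level of up to 0.0671 to 0.13 CPM (3 counts, counting error only). Both clusters thus joined abundant and scarce neighbours, *lys-1* and *lys-2* beside *lys-3*, and *lys-4* beside *lys-5* and *lys-6*.

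The order of the abundant genes was not the same in every group. *lys-1* led in each of the 4 groups, and its libraries did not overlap those of the next gene. In Cd-exposed L3 animals *lys-4* (288.9 ± 1.11 TPM, SD, n = 3) and *lys-8* (281.8 ± 13.9 TPM) came next and overlapped, ahead of *lys-2* (198.5 ± 6.42 TPM) and *lys-7* (173.4 ± 21.4 TPM). In unexposed L3 animals *lys-8*, *lys-4* and *lys-7* each overlapped their neighbour in the order (337.2, 312.0 and 275.9 TPM), and *lys-2* was below them at 184.1 ± 18.5 TPM. In Cd-exposed L4 animals the order was *lys-8* (309.4 ± 7.65 TPM), *lys-2* (293.9 ± 9.71 TPM), *lys-7* (172.9 ± 57.8 TPM) and *lys-4* (102.5 ± 9.89 TPM), with no overlap between neighbours. In unexposed L4 animals the order was the same, but the 4 genes overlapped from one to the next.

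**Figure D1:**
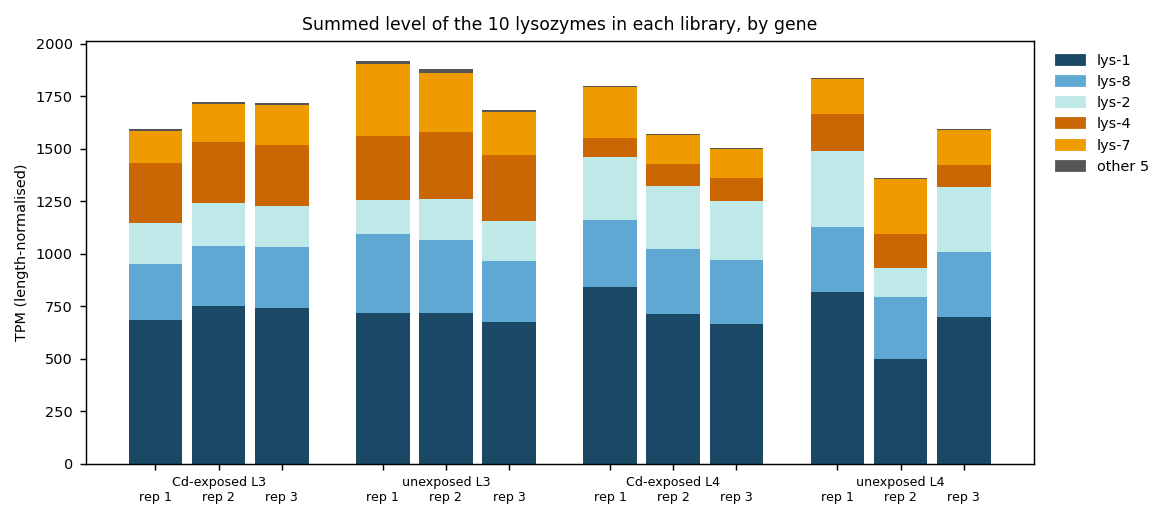
Stacked bars of the summed level (TPM, length-normalised) of the 10 lysozymes in each of the 12 libraries, split by gene, with the 5 scarce or undetected genes pooled as other. The family summed to 1593 to 1724 TPM in Cd-exposed L3 libraries and 1686 to 1918 TPM in unexposed L3 libraries, and to 1505 to 1797 TPM in Cd-exposed L4 libraries and 1362 to 1836 TPM in unexposed L4 libraries.

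The summed family level overlapped between Cd-exposed and unexposed animals at both stages, as the stacked bars show. The lowest sum, 1362 TPM, belonged to unexposed L4 replicate 2. In that library *lys-1*, *lys-2* and *lys-3* were all the lowest of their group, at 479.8, 111 and 0.5191 CPM, while *lys-4*, *lys-5*, *lys-6*, *lys-7* and *lys-10* were the highest of theirs. Several fitted differences, though not all that it moved, are also given without it.

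The first comparison asked how the family stood after 27 h of growth with Cd. A gene was called when its p from edgeR's quasi-likelihood test, adjusted after Benjamini-Hochberg over all genes tested, did not exceed 0.05 and its log2 fold change reached 1 in size, the fold minimum. Of the 10 members 9 passed the filter on low counts and *lys-9* did not. At L3 none of these 9 was called in either direction by edgeR, while 0.246% of the 15024 genes tested were called higher and 3.38% lower. By the adjusted p alone, with no fold minimum, 0 members were lower against a background of 5.17%. At an unadjusted p of at most 0.05 there were 7 members, and 3908 of the 15024 genes tested. The median log2 fold change was -0.42 over the 9 members and 0.01 over all genes tested. In 5 of the 9, *lys-3*, *lys-4*, *lys-5*, *lys-7* and *lys-10*, every Cd-exposed library lay below every unexposed one, a pattern that 17.4% of all genes tested showed.

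Among the abundant genes, *lys-7*, which is known as a target of DAF-16 and for its part in resistance to pathogens, measured 113.2, 138.9 and 154.8 CPM in Cd-exposed L3 libraries against 303.1, 235.6 and 165 CPM in unexposed ones. The unexposed libraries were spread widely, and their lowest, replicate 3, was close to the highest exposed library. The log2 fold change was -0.78 ± 0.22 (SE, n = 3 and 3) with an edgeR adjusted p of 0.0758. *lys-4* was much tighter, at 185.1, 187.5 and 200.7 CPM in Cd-exposed L3 libraries against 228.7, 223.1 and 217.7 CPM in unexposed ones. All 3 exposed libraries were below all 3 unexposed ones, and the difference was small, at -0.22 ± 0.06 on the log2 scale (edgeR adjusted p = 0.0852). *lys-8*, another gene of the DAF-16 and DBL-1 responses, measured 217.1, 238.1 and 255.5 CPM in Cd-exposed L3 libraries against 360.1, 311.3 and 251.7 CPM in unexposed ones. Only unexposed replicate 3 reached into the exposed range (log2 fold change -0.37 ± 0.13, edgeR adjusted p = 0.135).

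*lys-1*, which responds to infection with *Serratia marcescens*, measured 630.6, 694.4 and 734.5 CPM in Cd-exposed L3 libraries against 770.4, 724.7 and 667.2 CPM in unexposed ones. *lys-2*, a gene of the PMK-1 response, measured 150.1, 160.1 and 162 CPM in Cd-exposed L3 libraries against 146.7, 167 and 158.9 CPM in unexposed ones. The groups overlapped for both genes. The 95% intervals of the log2 fold change ran from -0.27 to 0.14 for *lys-1* and from -0.17 to 0.18 for *lys-2*.

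The scarce genes rested on few counts, 29 to 145 per library at L3. *lys-10* measured 1.129, 0.8992 and 1.061 CPM in Cd-exposed L3 libraries against 1.732, 2.745 and 1.621 CPM in unexposed ones. It had the largest fitted log2 fold change of the 9 members at this stage, -0.98 ± 0.26, with an edgeR adjusted p of 0.0691. *lys-3* measured 1.398, 1.085 and 1.312 CPM in Cd-exposed L3 libraries against 2.251, 1.624 and 1.769 CPM in unexposed ones. *lys-5* measured 2.895, 2.946 and 2.401 CPM in Cd-exposed L3 libraries against 3.463, 4.28 and 3.302 CPM in unexposed ones. Both were lower in each exposed library, by fitted log2 fold changes of -0.55 ± 0.21 (*lys-3*, edgeR adjusted p = 0.154) and -0.42 ± 0.17 (*lys-5*, edgeR adjusted p = 0.177). *lys-6* measured 1.325, 1.581 and 1.815 CPM in Cd-exposed L3 libraries against 3.03, 3.099 and 1.651 CPM in unexposed ones, where replicate 3 fell inside the exposed range (-0.71 ± 0.28, edgeR adjusted p = 0.167).

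Unexposed L3 replicate 3 decided how the L3 comparison came out for several members. Without it *lys-10* was called lower (log2 fold change -1.12, edgeR adjusted p = 0.0206). *lys-6* (-0.96), *lys-7* (-0.98) and *lys-8* (-0.49) then passed the adjusted p but not the fold minimum, at 0.0145, 0.00179 and 0.00798 in edgeR. Over all genes too, the number called at L3 changed widely with the library left out, as given under the processing below. Whether the gain without this library was particular to these members was not tested. DESeq2's Wald test on all 6 libraries called 0 members, and gave adjusted p-values of 0.00903 for *lys-7* and 0.0277 for *lys-10* with folds under the minimum.

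Few tissue markers passed the test between the L3 groups, although their sums differed. The summed CPM of 10 intestine markers was 9577 to 10710 in Cd-exposed and 8262 to 8861 in unexposed libraries, that of 10 germline markers 486.3 to 494.3 in Cd-exposed and 424.4 to 458.4 in unexposed libraries, and that of 6 epidermis markers 580.7 to 697.2 in Cd-exposed and 779.3 to 869.3 in unexposed libraries. The sums did not overlap for any of these lists, and no marker was at 0 in all libraries. By edgeR's adjusted p alone, 1 of 9 intestine markers tested was higher (*cpr-1*, 0.51), 0 of 7 germline markers passed, and 1 of 6 epidermis markers was higher (*elt-3*, 0.50). The list medians were 0.20, 0.13 and 0.31 on the log2 scale. The largest part of the intestine sum was *asp-1*, which averaged 5403 ± 399.6 CPM in Cd-exposed and 4645 ± 148.6 CPM in unexposed L3 animals (edgeR adjusted p = 0.164). That sum does not stand for each marker, since *pept-1* was lower in every Cd-exposed library (-0.20). The lower epidermis sum followed the cuticle collagen gene *rol-6*, the only epidermis marker called lower, which averaged 150.9 ± 38.6 CPM in Cd-exposed and 510.7 ± 141.2 CPM in unexposed L3 animals (-1.75). In RNA of whole animals, fewer cells of a type and less RNA per cell cannot be told apart. The part of tissue composition in the lysozyme values was not tested.

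**Figure D2:**
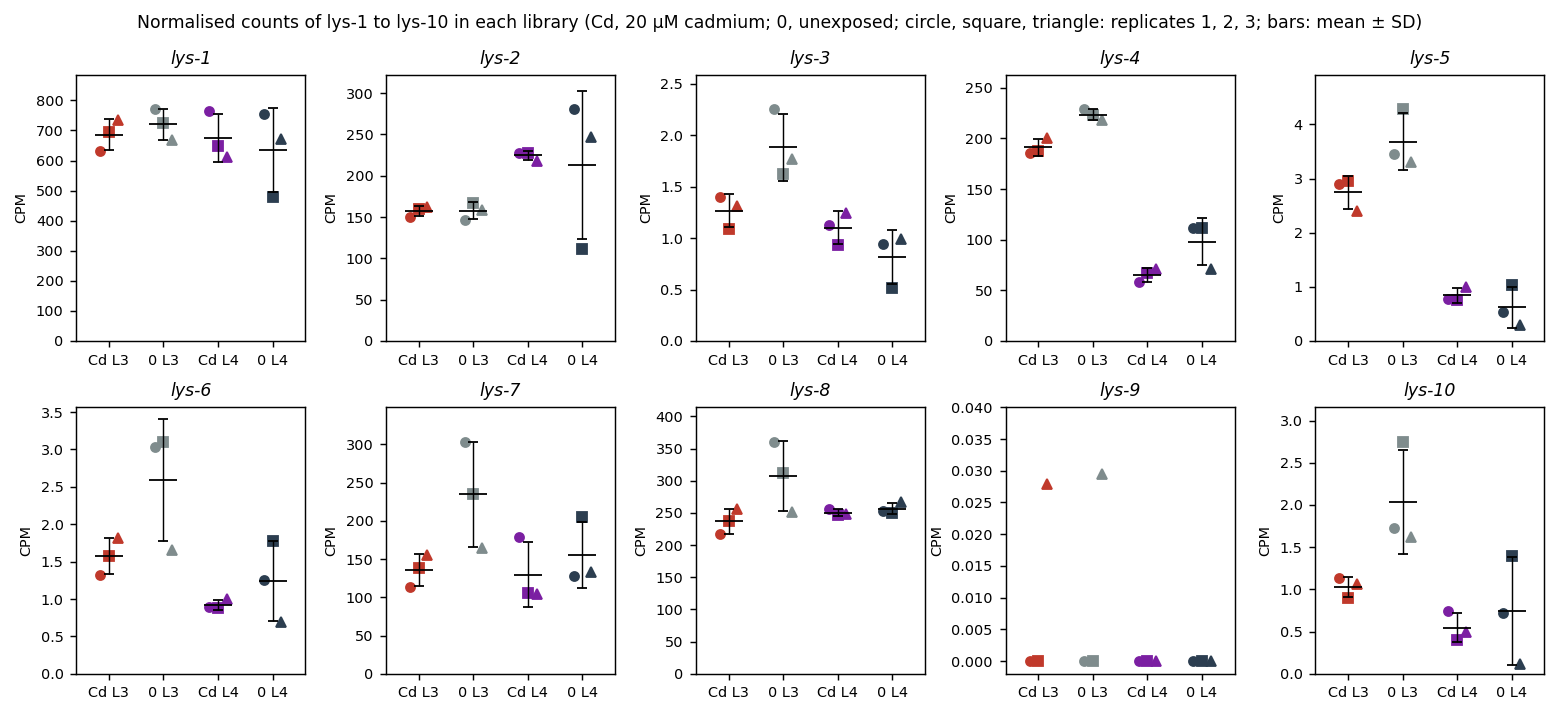
TMM-normalised counts (CPM, linear axis from 0, except *lys-9*, whose axis starts just below 0 so that points at 0 are seen) of each member in each library, with Cd-exposed and unexposed groups side by side at L3 and L4. Points are libraries, with circles, squares and triangles for replicates 1, 2 and 3, and bars are the mean ± SD (not drawn for *lys-9*). *lys-4* and *lys-5* stood lower in all L4 libraries than in all L3 libraries, and unexposed L4 replicate 2 stood low for *lys-1*, *lys-2* and *lys-3*. Within a condition, 40.8% (Cd-exposed) and 43.9% (unexposed) of all genes tested lay wholly lower at L4.

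The second comparison asked the same of L4 animals after 47 h. None of the 9 members was called by edgeR in either direction, with a background of 0.0370% called higher and 0.00617% called lower among 16201 genes. The test thus called few genes of any kind at this stage. The Cd-induced genes *mtl-2* (2.15, edgeR adjusted p = 0.0547) and *cdr-1* (2.04, edgeR adjusted p = 0.0524) were not called either, although their groups did not overlap. At an unadjusted p of at most 0.05 there was 1 member, *lys-4*, against 4342 of all genes tested, and DESeq2's Wald test called 0 members. No member had groups that did not overlap, whereas 18.5% of all genes tested lay wholly higher and 17.8% wholly lower in the Cd-exposed libraries. The median log2 fold change of the members was -0.02, beside 0.03 over all genes tested.

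*lys-4* measured 58.06, 66.74 and 71.21 CPM in Cd-exposed L4 libraries against 111.2, 111.9 and 71.13 CPM in unexposed ones. Unexposed replicate 3 touched the exposed range, while the other unexposed libraries stood well above it. The fitted difference was -0.56 ± 0.17 on the log2 scale (edgeR adjusted p = 0.11), and DESeq2's Wald test gave an adjusted p of 0.0245 with the fold under the minimum. *lys-8* was the steadiest member at this stage, at 256.2, 247.3 and 247.9 CPM in Cd-exposed L4 libraries against 253, 250.2 and 266.9 CPM in unexposed ones. The 95% interval of its log2 fold change ran from -0.21 to 0.17. *lys-7* measured 179.2, 105.9 and 104.4 CPM in Cd-exposed L4 libraries against 127.7, 205.1 and 133.5 CPM in unexposed ones, with 1 high library in each group (-0.23 ± 0.25, edgeR adjusted p = 0.538). Without unexposed replicate 2 the *lys-7* difference was -0.00491.

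For *lys-1* and *lys-2* the L4 comparison turned on unexposed replicate 2. *lys-1* measured 764.3, 649.4 and 611.4 CPM in Cd-exposed L4 libraries against 754.8, 479.8 and 670.4 CPM in unexposed ones. *lys-2* measured 228, 227.7 and 217.9 CPM in Cd-exposed L4 libraries against 280.4, 111 and 246.9 CPM in unexposed ones. The log2 fold changes were 0.10 ± 0.18 (*lys-1*) and 0.09 ± 0.29 (*lys-2*) with replicate 2, and -0.08 (*lys-1*) and -0.23 (*lys-2*) without it. *lys-2* thus had the most even values of the abundant genes in Cd-exposed L4 libraries after *lys-8*, and the most uneven in unexposed ones.

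The scarce genes gave wide intervals at L4. *lys-10* had 16 to 25 counts in the Cd-exposed L4 libraries against 32, 51 and 4 counts in the unexposed ones. These counts correspond to 0.7421, 0.4028 and 0.497 CPM in Cd-exposed L4 libraries against 0.7159, 1.393 and 0.1164 CPM in unexposed ones, and the 95% interval of the log2 fold change ran from -1.92 to 1.06. The negative sign of the fitted *lys-10* difference (-0.43) rested on unexposed replicate 2, without which it was 0.31. *lys-3* measured 1.128, 0.9315 and 1.243 CPM in Cd-exposed L4 libraries against 0.9397, 0.5191 and 0.9891 CPM in unexposed ones. The *lys-3* libraries overlapped only through exposed replicate 2 (0.44 ± 0.31, edgeR adjusted p = 0.358). *lys-5* measured 0.7718, 0.7552 and 0.994 CPM in Cd-exposed L4 libraries against 0.537, 1.038 and 0.2909 CPM in unexposed ones. *lys-6* measured 0.8905, 0.8811 and 0.994 CPM in Cd-exposed L4 libraries against 1.253, 1.776 and 0.6982 CPM in unexposed ones. In both genes the exposed libraries sat inside the range of the unexposed ones, and the edgeR adjusted p-values were 0.473 (*lys-5*) and 0.426 (*lys-6*). Their log2 fold changes were 0.46 (*lys-5*) and -0.41 (*lys-6*), and without unexposed replicate 2, the highest of its group for both, 0.99 and -0.10.

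Whether the Cd effect itself differed between the stages was tested as an interaction over the 12 libraries. None of the 9 members was called by edgeR, with 0.634% of 17196 genes called higher and 5.60% called lower. Higher here means a more positive log2 fold change for Cd at L3 than at L4, not a larger response. Of the called genes 10.2% were higher, and by DESeq2's Wald test 21.8%. At an unadjusted p of at most 0.05 there was 1 member, *lys-3*, against 5138 of all genes tested, and DESeq2's Wald test called 0 members. The *lys-3* effect at L3 minus that at L4 was -0.99 ± 0.37 on the log2 scale (edgeR adjusted p = 0.101). For *lys-5* the difference was -0.86 ± 0.45 (edgeR adjusted p = 0.22), and without unexposed L4 replicate 2 it became -1.41 and was called (edgeR adjusted p = 0.0414). *lys-4* was the only member with a positive difference, 0.36 ± 0.20 (edgeR adjusted p = 0.246), although with DESeq2's size factors *lys-2* was also above 0, at 0.0264. The fitted log2 fold changes of *lys-4* for Cd were -0.22 at L3 and -0.56 at L4.

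In number of calls stage separated the members more than Cd did, as it did all genes tested. The comparison was made once within Cd-exposed and once within unexposed animals, and each of these shares its libraries with the Cd comparisons above. In Cd-exposed animals edgeR called 2 of 9 members lower at L4 than at L3 and 0 higher, against a background of 22.6% lower and 25.5% higher among 16650 genes. By the adjusted p alone 4 members were lower (background 39.5%) and 1 was higher (background 40.0%). In unexposed animals edgeR called 3 of 9 lower and 0 higher, against a background of 27.9% lower and 28.5% higher among 16487 genes. There, 4 members were lower by the adjusted p alone, with a background of 40.6%. The shares of lower members were close to these backgrounds in both cases. The median log2 fold change of the members was -0.21 in Cd-exposed and -0.99 in unexposed animals, beside -0.01 and -0.07 over all genes tested.

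In the cluster on chromosome IV edgeR called *lys-4* and *lys-5* lower at L4 in both conditions and *lys-6* in neither. Of all genes tested, 22.6% in Cd-exposed and 27.9% in unexposed animals were called lower. *lys-4* averaged 65.3 ± 6.68 CPM in Cd-exposed L4 animals against 191.1 ± 8.44 CPM in Cd-exposed L3 animals (SD, n = 3 each), a fall of 2.94-fold (log2 fold change -1.55 ± 0.09, edgeR adjusted p = 1.93e-07). In unexposed animals it averaged 98.1 ± 23.3 CPM at L4 and 223.2 ± 5.48 CPM at L3, 2.18-fold lower (-1.12 ± 0.16, edgeR adjusted p = 0.000269). Each L4 library was below each L3 library in both conditions. That pattern was shown by 4 of the 9 members in each condition, beside 40.8% (Cd-exposed) and 43.9% (unexposed) of all genes tested. *lys-5* averaged 0.840 ± 0.133 CPM in Cd-exposed L4 animals against 2.75 ± 0.301 CPM in Cd-exposed L3 animals (-1.70 ± 0.22, edgeR adjusted p = 5.24e-05). In unexposed animals it averaged 0.622 ± 0.381 CPM at L4, from 10 to 38 counts, against 3.68 ± 0.525 CPM at L3, the largest stage difference of the 9 members (-2.50 ± 0.38, edgeR adjusted p = 0.000409). *lys-6*, the third gene of this cluster, averaged 0.922 ± 0.063 CPM in Cd-exposed L4 animals against 1.57 ± 0.245 CPM in Cd-exposed L3 animals. It averaged 1.24 ± 0.539 CPM in unexposed L4 animals against 2.59 ± 0.817 CPM in unexposed L3 animals. Its log2 fold changes of -0.77 ± 0.23 in Cd-exposed and -0.99 ± 0.37 in unexposed animals passed the adjusted p (0.0112 and 0.0364 in edgeR) and stayed above -1, the fold minimum. Single libraries decided the unexposed value. *lys-6* was called without unexposed L3 replicate 3 (-1.23) or unexposed L4 replicate 2 (-1.29), and without any 1 of the other 4 unexposed libraries its edgeR adjusted p lay between 0.0911 and 0.115.

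The cluster on chromosome V did not share a direction. *lys-2* averaged 224.6 ± 5.75 CPM in Cd-exposed L4 animals against 157.4 ± 6.41 CPM in Cd-exposed L3 animals, the one member that was higher at L4 by the adjusted p alone (0.51 ± 0.07, edgeR adjusted p = 0.000127). In unexposed animals the L4 mean was 212.8 ± 89.7 CPM against 157.5 ± 10.2 CPM at L3, and the same fitted difference of 0.51 had an SE of 0.31 and an edgeR adjusted p of 0.156. Without unexposed L4 replicate 2 it was 0.83 (edgeR adjusted p = 0.000222), under the fold minimum. Its neighbour *lys-3* averaged 0.816 ± 0.258 CPM in unexposed L4 animals against 1.88 ± 0.329 CPM in unexposed L3 animals and was called lower (-1.12 ± 0.31, edgeR adjusted p = 0.00969). That call was lost to the fold minimum without unexposed L4 replicate 2 (-0.87) or without unexposed L3 replicate 1 (-0.996). In Cd-exposed animals *lys-3* averaged 1.10 ± 0.157 CPM at L4 and 1.26 ± 0.162 CPM at L3 (-0.21 ± 0.24, edgeR adjusted p = 0.428). *lys-1* averaged 675.0 ± 79.6 CPM in Cd-exposed L4 animals and 686.5 ± 52.4 CPM in Cd-exposed L3 animals, and 635.0 ± 140.9 CPM in unexposed L4 animals and 720.8 ± 51.7 CPM in unexposed L3 animals. Its L4 and L3 libraries overlapped in both conditions, and its small fitted differences of -0.03 and -0.11 turned positive with DESeq2's size factors.

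Of the genes outside the clusters, *lys-10* lay wholly lower at L4 in both conditions, beside 40.8% and 43.9% of all genes tested. It averaged 0.547 ± 0.175 CPM in Cd-exposed L4 animals against 1.03 ± 0.118 CPM in Cd-exposed L3 animals (-0.93 ± 0.30, edgeR adjusted p = 0.0155), just short of the fold minimum. It was called there without Cd-exposed L3 replicate 2 (-1.01) or Cd-exposed L4 replicate 1 (-1.18). In unexposed animals it averaged 0.742 ± 0.639 CPM at L4 against 2.03 ± 0.619 CPM at L3, and the large difference came with a large error (-1.39 ± 0.61, edgeR adjusted p = 0.0622). It was called lower without unexposed L4 replicate 2 (-2.13, edgeR adjusted p = 0.0147). *lys-7* averaged 129.8 ± 42.8 CPM in Cd-exposed L4 animals and 135.6 ± 21.02 CPM in Cd-exposed L3 animals, and 155.4 ± 43.1 CPM in unexposed L4 animals and 234.6 ± 69.1 CPM in unexposed L3 animals. *lys-8* averaged 250.5 ± 4.99 CPM in Cd-exposed L4 animals and 236.9 ± 19.2 CPM in Cd-exposed L3 animals, and 256.7 ± 8.95 CPM in unexposed L4 animals and 307.7 ± 54.3 CPM in unexposed L3 animals. L4 and L3 overlapped for both genes, with edgeR adjusted p-values between 0.0643 and 0.76. For *lys-7* in unexposed animals the overlap came only from L4 replicate 2 (205.1 CPM) lying above L3 replicate 3 (165 CPM). Its log2 fold change there was -0.53. It was -0.75 without unexposed L4 replicate 2 (edgeR adjusted p = 0.0188) and -0.72 without unexposed L3 replicate 3 (edgeR adjusted p = 0.00902), under the fold minimum. In Cd-exposed animals it was -0.07, and -0.36 without L4 replicate 1 (edgeR adjusted p = 0.0193).

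**Figure D3:**
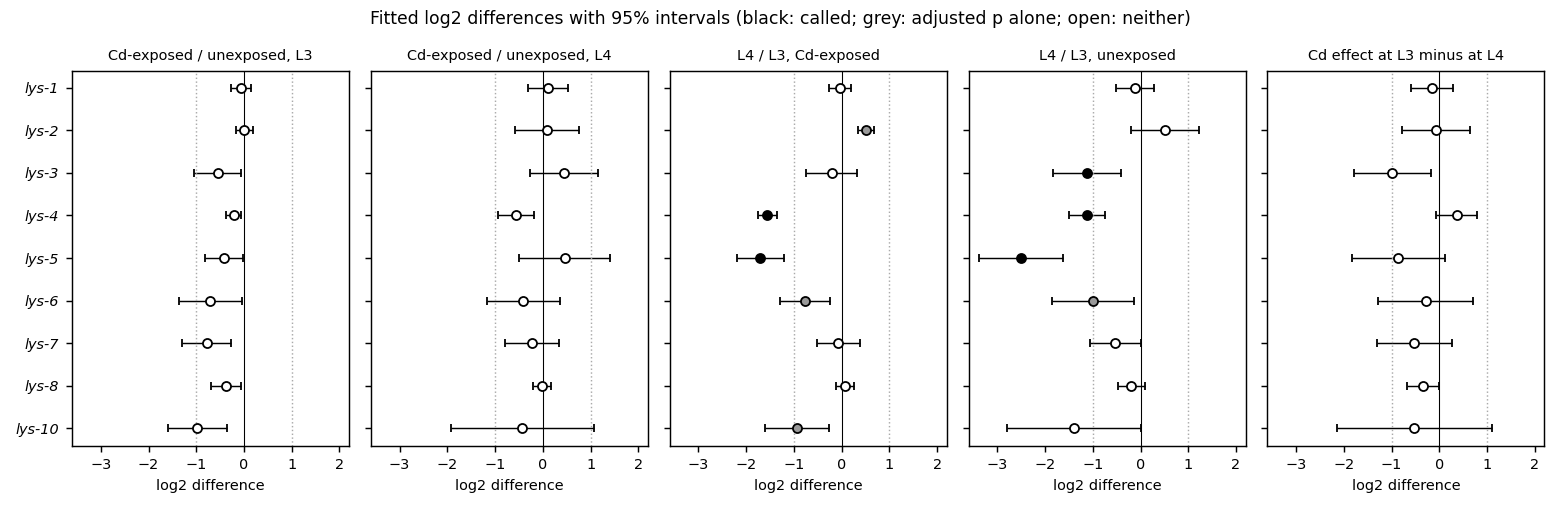
Fitted log2 differences of the 9 tested members (points) with 95% intervals (bars) in 5 panels, for Cd-exposed over unexposed at L3 and at L4, L4 over L3 in Cd-exposed and in unexposed animals, and the Cd effect at L3 minus that at L4. Black points are called, grey points pass the adjusted p alone, open points neither, and dotted lines mark the fold minimum. Black points appear only in the panels of stage, for *lys-4* and *lys-5* in both conditions and for *lys-3* in unexposed animals.

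The calls of *lys-3* and *lys-4* between unexposed stages lay close to the fold minimum. With DESeq2's size factors in place of TMM the log2 fold changes were -0.99 (*lys-3*) and -0.98 (*lys-4*), and only *lys-5* was called. Without unexposed L4 replicate 3 *lys-4* was also under the minimum (-0.92). With the replicate number as a block the count was 5, since *lys-6* (-1.03) and *lys-10* (-1.63) passed as well.

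Among the tissue markers, those of the germline differed most between the stages by list median (4.17 in Cd-exposed and 4.43 in unexposed animals, log2 scale). Summed intestine markers measured 6752 to 7122 CPM in Cd-exposed L4 and 9577 to 10710 CPM in Cd-exposed L3 libraries, and 6673 to 8126 CPM in unexposed L4 and 8262 to 8861 CPM in unexposed L3 libraries. Of the 9 intestine markers tested, 9 in Cd-exposed and 6 in unexposed animals were lower at L4 by edgeR's adjusted p alone (background 39.5% and 40.6%). The intestine medians were -0.48 and -0.52 on the log2 scale. Only *cpr-1*, a cathepsin B-like protease gene, was also past the fold minimum in Cd-exposed animals (-2.18). In unexposed animals only *elt-7*, a GATA factor gene of the intestine, was (-1.22). Of all genes tested, 22.6% (Cd-exposed) and 27.9% (unexposed) were called lower. *asp-1*, the largest part of the intestine sum, was not lower at L4 in unexposed animals (0.15, edgeR adjusted p = 0.317). Summed germline markers measured 2235 to 2814 CPM in Cd-exposed L4 and 486.3 to 494.3 CPM in Cd-exposed L3 libraries, and 2822 to 3533 CPM in unexposed L4 and 424.4 to 458.4 CPM in unexposed L3 libraries. Of the 10 germline markers, 9 were called higher at L4 in each condition, beside 25.5% (Cd-exposed) and 28.5% (unexposed) of all genes tested. Of the 6 epidermis markers, 2 were called higher and 3 lower in Cd-exposed animals, and 2 higher and 2 lower in unexposed animals. The part of these shifts in the lysozyme differences was not tested.

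The other bacteriolytic families were read from the same fits. Of the 6 invertebrate-type lysozyme genes *ilys-1* to *ilys-6*, 4 were tested at L3 and 3 at L4 for Cd, and none was called by edgeR. *ilys-5* passed the adjusted p alone at L3 (-0.55 ± 0.13, edgeR adjusted p = 0.049). Between stages 2 of 4 were called lower at L4 in each condition, *ilys-2* (-1.47) and *ilys-3* (-3.03) in Cd-exposed animals and *ilys-3* (-2.98) and *ilys-4* (-1.24) in unexposed animals. Of all genes tested, 22.6% in Cd-exposed and 27.9% in unexposed animals were called lower. The list medians were -1.23 and -0.41. *ilys-5*, the most abundant of these genes at 333.5 to 626.9 TPM in group means, went the other way. It was higher at L4 by the adjusted p alone (0.48 in Cd-exposed and 0.42 in unexposed animals). The genes called lower in Cd-exposed animals rested on few counts, 13 to 50 (*ilys-2*) and 4 to 85 (*ilys-3*) per library. Summed *ilys* CPM was 519.6 to 539.1 in Cd-exposed L4 and 366.5 to 449.1 in Cd-exposed L3 libraries, and overlapped between the unexposed stages.

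The 23 *spp* genes encode saposin-like proteins, several of which form pores in bacterial membranes. For Cd at L3, 1 of the 19 tested, *spp-13*, was called lower (-1.27 ± 0.24, edgeR adjusted p = 0.0255), beside 3.38% of all genes tested. *spp-4* and *spp-18* were lower by the adjusted p alone. For Cd at L4, 0 of 17 were called. Between stages 5 of 18 were called lower at L4 in Cd-exposed animals, among them *spp-2* (-2.07) and *spp-19* (-1.94), and 7 of 19 in unexposed animals, among them *spp-13* (-3.02) and *spp-19* (-2.40), with 0 called higher in either, beside the same 22.6% and 27.9% of all genes called lower. The medians were -0.65 in Cd-exposed and -0.63 in unexposed animals. In the interaction *spp-7* (-2.47) and *spp-13* (-1.94) were called lower and *spp-23* (1.09) higher of 19 tested, with 5.60% of all genes called lower and 0.634% higher, whereas no *lys* or *ilys* gene was called.

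None of 20 genes of immune and intestinal regulation was called for Cd at either stage. Between stages 3 of 20 were called lower at L4 in Cd-exposed animals, beside 22.6% of all genes tested, namely the Smad genes *sma-2* (-1.14) and *sma-3* (-1.69) and the receptor gene *sma-6* (-1.77). Other DBL-1 pathway genes on the list, *dbl-1* (-0.44), *daf-4* (-0.86) and *sma-4* (-0.61), passed the adjusted p alone. In unexposed animals 6 of 20 were called lower, beside 27.9% of all genes tested, the same 3 genes at -1.19, -1.94 and -1.38 together with *elt-7* (-1.22), the infection-response factor *zip-2* (-1.06) and the β-catenin gene *bar-1* (-1.11). The list medians were -0.57 in Cd-exposed and -0.61 in unexposed animals. With no fold minimum 13 were lower and 2 higher in Cd-exposed animals (background 39.5% and 40.0%). In unexposed animals 14 were lower and 4 higher (background 40.6% and 40.7%). *skn-1* was higher at L4 in both conditions (0.79 and 0.71), and *daf-2* (0.86) and *daf-16* (0.29) in unexposed animals only. The genes of the PMK-1 cascade on the list (*pmk-1*, *sek-1*, *nsy-1*, *tir-1*, *atf-7*) were called in no comparison. By edgeR's adjusted p alone *pmk-1* was lower at L4 (-0.87 in Cd-exposed and -0.90 in unexposed animals) and *atf-7* was higher (0.51 and 0.43). *sek-1* was lower at L4 in unexposed animals only (-0.26), and *nsy-1* and *tir-1* did not pass between stages in either condition.

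**Figure D4:**
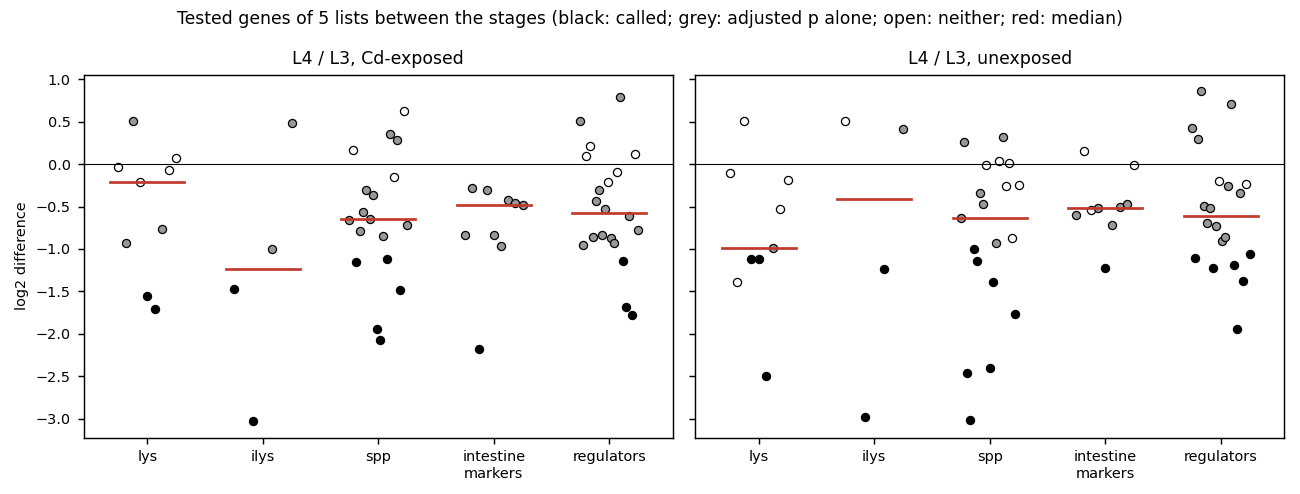
Fitted log2 differences of L4 over L3 (vertical axis) for each tested gene of 5 lists, in Cd-exposed (left) and unexposed animals (right). Black points are called, grey points pass the adjusted p alone, open points neither, and red lines are list medians, which for the *lys* genes were -0.21 in Cd-exposed and -0.99 in unexposed animals. No gene of these lists was called higher at L4 in either panel.

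The genes whose pattern was most like that of each member were found by Pearson's r of log2 CPM over the 12 libraries, among 17195 other genes. As the libraries fall into groups by stage, r is a description of the shared pattern and carries no p. *lys-4* had the closest companions, *nspc-17* (r = 0.99) and *asp-13*, an aspartyl protease gene (r = 0.988). *lys-5* came closest to *acs-17* (r = 0.981), *lys-6* to *cyp-35C1*, a cytochrome P450 gene (r = 0.97), *lys-8* to *C34B7.1* (r = 0.958), *lys-2* to *Y87G2A.16* (r = 0.953) and *lys-3* to *F57G8.5* (r = 0.948). *lys-10* followed *W04E12.9* (r = 0.931) and *lys-7* followed *K08H10.11* (r = 0.928). *lys-1* had the least close companion, *F20G2.2* (r = 0.881). Among the members themselves *lys-6* and *lys-10*, which lie apart on chromosome IV, were the most alike (r = 0.89), followed by *lys-4* and *lys-5* (r = 0.884), and *lys-2* ran opposite to *lys-5* (r = -0.684).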

How the data were processed

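RNA-seq counts per gene of 12 libraries were used as deposited by the authors, who mapped paired-end reads to WBcel235 with STAR (v2.5.2b) and counted them with featureCounts (Subread v1.5.2). The submitters' processing notes also name Trimmomatic (v0.36). The annotation release, strandedness and treatment of multi-mapping reads are not given in the sources used here. The deposited exon length per gene was used for TPM. An entry without a gene name, 0.0148% to 2.01% of the counts per library, was left out, and 0 columns were unmatched.

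Counts were tested with edgeR (v4.0.16, R v4.3.3, limma v3.58.1) by TMM, filterByExpr, glmQLFit and glmQLFTest, with only the groups compared in each fit and all 12 libraries in the interaction. Genes were called at a Benjamini-Hochberg adjusted p up to 0.05 and a log2 fold change of 1 or more in size. An SE is the log2 fold change over the root of F. CPM for the correlations used a prior count of 2, for members of at least 1 CPM. The procedure was tested on simulated data. Alternatives were DESeq2 (v1.42.0) size factors or Wald test, no low-count filter, no fold minimum, a replicate block, all 12 libraries in each fit, and leaving out each library. Each pair of libraries of a group differed by more than sampling in a chi-square of counts.

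All 10 members were named, other genes where their list's counts required it. The members, the gene lists and the tests were chosen with earlier results of these data known. Lists were *ilys*, *spp*, regulators, markers of intestine, germline and epidermis, and the Cd-induced genes *mtl-1*, *mtl-2* and *cdr-1*, of which 3 of 3 were called higher by Cd at L3 and 1 of 3 at L4.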

Additional observations from a re-analysis of the deposited data

How the results depend on the processing

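For Cd at L3 and at L4 and for the interaction, 0 members were called under each alternative that kept all libraries. Leaving out 1 library gave 0 to 1 calls at L3, 0 at L4 and 0 to 1 in the interaction. Between Cd-exposed stages 2 members were called, 5 with no fold minimum, and 2 to 3 with a library left out, and *lys-4* and *lys-5* were among them each time. Between unexposed stages 3 were called, 1 with DESeq2 size factors, 1 with the Wald test, 5 with all 12 libraries in the fit, and 2 to 4 with a library left out. The replicate block gave 5 calls there. The deviations of same-numbered libraries correlated between -0.16 and 0.376 over genes and not above 0.1 in every pair of any comparison, so the numbers were not taken to pair libraries. The block added or removed no member in the other comparisons, while over all genes it called 5 at L3 and 387 at L4, against 545 and 7 without it. The Wald test called 766 genes at L3 and 170 at L4, and no low-count filter 267 at L4. With 1 library left out the genes called numbered 5 to 1267 at L3 and 0 to 12 at L4.

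Size factors moved the median log2 fold change of all genes by 0.11 (Cd-exposed stages), 0.14 (unexposed stages) and 0.11 (interaction). Differences near 0 then changed sign. Between Cd-exposed stages *lys-1* and *lys-7* became 0.0749 and 0.0336 with size factors and 0.0951 and 0.0532 with the Wald test, and *lys-1* became 0.00848 with no low-count filter. Between unexposed stages *lys-1* became 0.02246 with size factors and 0.0411 with the Wald test, and in the interaction *lys-2* became 0.0264 and 0.0315. *lys-2* for Cd at L3 was -0.00148 with all libraries in the fit. With a library left out, members changed sign within -0.114 to 0.00522 (*lys-1*) and -0.0447 to 0.0581 (*lys-2*) for Cd at L3. For Cd at L4 the ranges were -0.0754 to 0.225 (*lys-1*), -0.230 to 0.317 (*lys-2*), -0.0513 to 0.0149 (*lys-8*) and -0.919 to 0.315 (*lys-10*). They were -0.119 to 0.0480 (*lys-1*) and -0.363 to 0.0774 (*lys-7*) between Cd-exposed stages, -0.245 to 0.0722 (*lys-1*) between unexposed stages, and -0.300 to 0.00800 (*lys-1*) and -0.328 to 0.230 (*lys-2*) in the interaction. None of these members was called. The cause of each change was not tested.

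Scarce members limit the precision, since 4 to 145 counts per library stood behind *lys-3*, *lys-5*, *lys-6* and *lys-10*, and *lys-9* could not be tested.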
